A study of Mus musculus with 21 samples.

Results

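The aryl hydrocarbon receptor system was followed through 7 genes, Ahr, Arnt, Ahrr, Tiparp, Cyp1a1, Cyp1b1 and Nqo1, in mouse nephron progenitors cultured with BIO. They were chosen because BIO is an indirubin, a class of molecules that can bind this receptor. Every probe set with one of these symbols was used, 16 probe sets of 45037 tested, and the 7 genes stand among 18193 named genes. The cells were sorted at E16.5 from embryonic kidneys on a mixed strain background that carried a BAC transgene with Six2-driven GFP and Cre, and all 7 groups share that transgene. There were 40000 cells per sample and 3 arrays in each group, and the labels give 10% serum for all 7 groups. Aggregates, pelleted by centrifugation, received 4 µM BIO or the same volume of DMSO for 24 h. Dispersed cells received 4 µM BIO or DMSO for 24 h. A further pair of groups were aggregates that had 24 h of BIO and then either BIO for another 24 h (BIO kept) or DMSO for another 24 h (BIO withdrawn). The last group was freshly sorted cells. The labels name the arrays biological replicates but not the litter, sort or culture of each, so p-values measure only the spread between arrays, which may be technical. The groups hold no aggregates kept in DMSO alone for 48 h.

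The receptor is a transcription factor that waits in the cytoplasm with chaperones. When a ligand binds, it enters the nucleus, pairs with Arnt and binds DNA at elements with the core GCGTG. Cyp1a1, Cyp1b1, Ahrr, Tiparp and Nqo1 are textbook targets that rise with receptor ligands in many cell types, and Ahrr and Tiparp in turn dampen the receptor. BIO also inhibits the kinase GSK3, which stabilises beta-catenin, the carrier of the canonical Wnt signal.

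The 7 genes did not move as one group under BIO. Cyp1b1, a cytochrome P450 that oxidises polycyclic hydrocarbons and oestrogens, was 5.77-fold lower with BIO than with DMSO in aggregates and 3.27-fold lower in dispersed cells. Ahr, the receptor itself, was 2.62-fold lower with BIO in aggregates. Ahrr, the receptor's repressor, was 1.89-fold higher with BIO in dispersed cells. Tiparp, an ADP-ribosyltransferase that acts on the receptor, was 1.23-fold higher with BIO in aggregates. Cyp1a1, the cytochrome P450 most often used as a readout of the receptor, passed in none of the 8 comparisons. Its signal was low, with arrays on both sides of background in most groups. Nqo1, a quinone reductase, passed in DMSO culture against fresh cells but not with BIO. Values are quantile-normalised signals in arbitrary units, and each fold comes from the difference of group means on the log2(signal + 1) scale. A probe set was called where limma's p-value, adjusted by Benjamini-Hochberg over all 45037 probe sets, lay below 0.05.

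Promoter sequence was taken from RefSeq (build GRCm38.p6) for the 6 members whose entry was found. Each runs from 250 bases before to 50 bases after the start used by that entry. The Cyp1a1 start lies well inside the gene's span of 57687928 to 57703824, so it is not the outer end of that span. The Arnt start also differs slightly from the first base of its span. Shown are Cyp1b1, Ahrr and Tiparp, whose brightest probe sets were called under BIO, together with Cyp1a1 for its use as a readout. Capitals mark the core GCGTG, searched on both strands, so that it reads CACGC where it lies on the other strand. The Cyp1b1 promoter is chr17:79715012-79715311 on the minus strand, the Cyp1a1 promoter chr9:57697363-57697662 on the plus strand, the Ahrr promoter chr13:74292282-74292581 on the minus strand and the Tiparp promoter chr3:65528197-65528496 on the plus strand.
Cyp1b1: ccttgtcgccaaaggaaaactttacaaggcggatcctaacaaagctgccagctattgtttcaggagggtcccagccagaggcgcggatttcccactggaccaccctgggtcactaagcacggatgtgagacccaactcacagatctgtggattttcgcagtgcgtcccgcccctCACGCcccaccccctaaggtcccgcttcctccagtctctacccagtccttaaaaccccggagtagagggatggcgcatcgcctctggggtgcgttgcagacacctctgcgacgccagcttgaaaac
Cyp1a1: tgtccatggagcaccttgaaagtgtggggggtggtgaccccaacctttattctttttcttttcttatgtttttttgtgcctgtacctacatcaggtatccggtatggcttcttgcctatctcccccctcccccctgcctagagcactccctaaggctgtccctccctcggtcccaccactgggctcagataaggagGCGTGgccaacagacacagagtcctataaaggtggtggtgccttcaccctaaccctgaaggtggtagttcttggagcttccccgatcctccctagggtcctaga
Ahrr: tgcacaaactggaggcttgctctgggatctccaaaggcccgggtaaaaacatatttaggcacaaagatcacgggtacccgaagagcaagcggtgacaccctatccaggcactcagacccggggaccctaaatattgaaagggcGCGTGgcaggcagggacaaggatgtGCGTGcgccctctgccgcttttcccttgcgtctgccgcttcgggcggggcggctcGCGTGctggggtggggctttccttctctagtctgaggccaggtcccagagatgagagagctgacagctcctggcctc
Tiparp: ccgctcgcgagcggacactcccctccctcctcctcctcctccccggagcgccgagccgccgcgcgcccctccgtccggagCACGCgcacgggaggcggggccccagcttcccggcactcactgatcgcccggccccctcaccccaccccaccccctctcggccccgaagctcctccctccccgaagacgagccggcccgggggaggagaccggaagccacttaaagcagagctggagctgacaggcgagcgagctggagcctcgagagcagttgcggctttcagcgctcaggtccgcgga

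Cyp1b1 held 1 core, 76 bases before the start, and Cyp1a1 held 1, 54 bases before it. Ahrr held 3 cores, 107, 82 and 27 bases before the start, of which 1 sat in the longer form TNGCGTG. Tiparp held 1, 170 bases before the start, and Arnt, on chromosome 3, held 1, 29 bases before it. The Nqo1 window held none. Sequence outside these windows was not searched, so receptor elements further from the start would be missed. Of 32851 promoters of the same length 32.4% held at least 1 core, 3.91% held 3 or more and 5.07% held the longer form. A match is a description of the letters and not a binding site. Both Cyp1b1, which was lower with BIO, and Ahrr, which was higher in dispersed cells, carried the core.

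**Figure D1:**
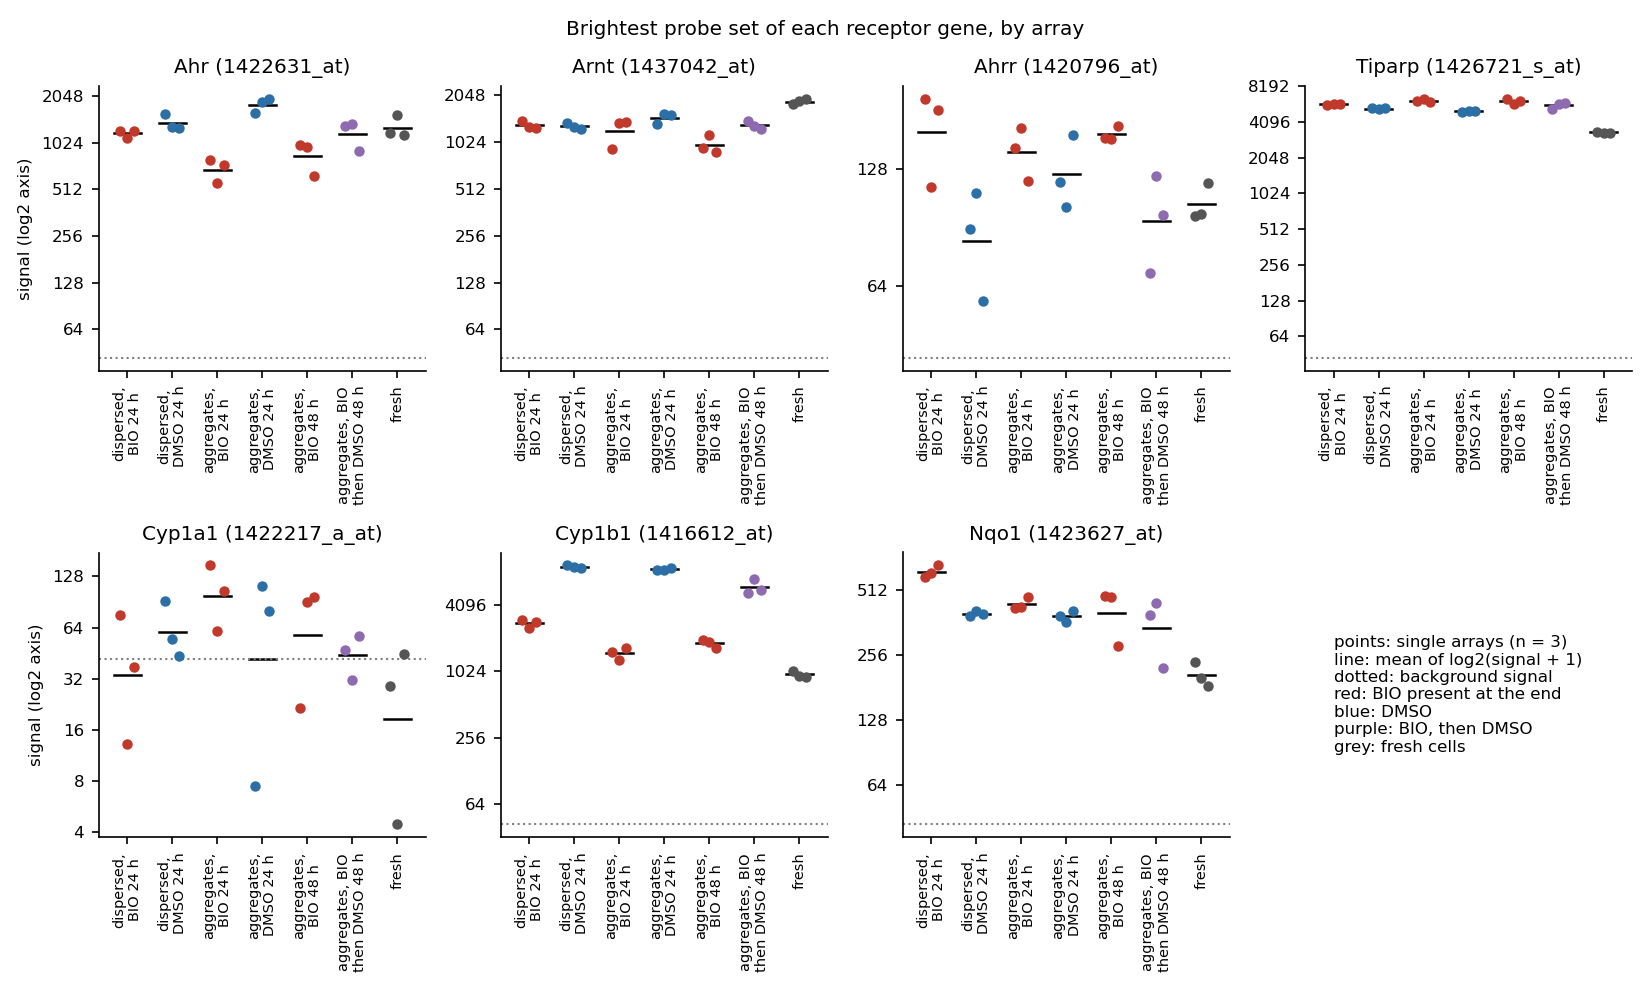
Signal of the brightest probe set of each gene on each of the 21 arrays (log2 axis, in arbitrary units, with a different range in each panel), with the mean of log2(signal + 1) as a line and the background signal of 41.9 dotted. Cyp1b1 is lower on every BIO array than on every DMSO array of the same culture and lowest in fresh cells. Cyp1a1 scatters around background in most groups.

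The receptor gene Ahr (chromosome 12, 35497979 to 35534989) has a bright probe set, 1422631_at. Its signal was 788, 562 and 738 in aggregates with BIO at 24 h, against 1587, 1891 and 1964 in aggregates with DMSO. The groups did not overlap, and the difference was -1.39 ± 0.20 (log2, SE, n = 3 each, adjusted p = 0.000109). In dispersed cells the signal was 1213, 1106 and 1214 with BIO, against 1579, 1301 and 1283 with DMSO. This difference of -0.23 ± 0.20 did not pass (adjusted p = 0.521), and its 95% interval ran from -0.66 to 0.20. The effect of BIO in aggregates minus that in dispersed cells was -1.16 ± 0.29 (adjusted p = 0.0919). It passed with array weights (adjusted p = 0.0293) and with a variance trend and robust prior (adjusted p = 0.0331), and its adjusted p reached 0.355 over all 32 alternatives. The 3' beta-actin control read 2669 to 5410 on the aggregates with BIO, against 7700 to 12590 on the aggregates with DMSO. With that control as a covariate the fall of Ahr in aggregates was 1.26 ± 0.39 and no longer passed (adjusted p = 0.0636). The other Ahr probe set, 1450695_at, was dim, with group means between 75.1 and 108, and passed in none of the 8 comparisons.

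Ordered by level, 1422631_at was highest in aggregates with DMSO, and no step between neighbours passed: dispersed cells with DMSO, fresh cells, dispersed cells with BIO, aggregates after BIO withdrawn, aggregates with BIO kept and aggregates with BIO at 24 h followed. Groups further apart could differ. Aggregates with BIO at 24 h lay below fresh cells (-0.895 ± 0.20, adjusted p = 0.00345), where 29.1% of all probe sets were called. They also lay below dispersed cells with BIO, by 0.77 ± 0.20 (adjusted p = 0.0172). Dispersed cells with BIO against fresh cells did not pass (-0.12 ± 0.20, adjusted p = 0.774). At 48 h the signal was 992, 968 and 629 with BIO kept, against 1305, 1357 and 902 with BIO withdrawn, and the groups overlapped (-0.47 ± 0.20, adjusted p = 0.161). Comparisons of the 48 h groups with BIO at 24 h also carry a further day of culture. With BIO kept the difference was 0.295 ± 0.20 (adjusted p = 0.39). With BIO withdrawn Ahr stood above its 24 h BIO level by 0.76 ± 0.20 (adjusted p = 0.0138). That call was lost without array 2 of BIO at 24 h (0.62, adjusted p = 0.0694), without array 1 of BIO withdrawn (0.69, adjusted p = 0.0553) and without array 2 of BIO withdrawn (0.66, adjusted p = 0.0602). It was also lost with only the compared arrays (adjusted p = 0.0974) and with the beta-actin covariate (adjusted p = 0.6).

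Arnt (chromosome 3, 95434367 to 95497240), the partner with which the receptor binds DNA, has 5 probe sets that did not move alike. The brightest, 1437042_at, read 929, 1362 and 1374 in aggregates with BIO, against 1349, 1557 and 1532 with DMSO, and the groups overlapped (-0.30 ± 0.14, adjusted p = 0.165). In dispersed cells it read 1407, 1286 and 1263 with BIO, against 1362, 1281 and 1250 with DMSO, a difference of 0.02 ± 0.14 with a 95% interval from -0.27 to 0.32. At 48 h it read 938, 1136 and 886 with BIO kept, against 1396, 1306 and 1248 with BIO withdrawn. These groups did not overlap but the difference of -0.42 ± 0.14 did not pass (adjusted p = 0.0585). It passed in 6 of 32 alternatives, with adjusted p between 0.0156 without array 1 of BIO at 24 h and 0.0464 with log2(signal + 16). Of the dimmer probe sets, 1421721_a_at was lower with BIO in dispersed cells (-0.72 ± 0.22, adjusted p = 0.032) and 1449696_at was higher. The probe set 1449696_at read 61.1, 70.4 and 67.5 with BIO, against 36.9, 34.7 and 30.2 with DMSO, where all 3 arrays were below background, so the rise is at least 1.57-fold (adjusted p = 0.0304). The call of 1421721_a_at was lost in 8 of 31 alternatives, among them without any 1 of the 3 BIO arrays or without DMSO array 2 or 3 (adjusted p between 0.0599 and 0.123). The call of 1449696_at was lost in 9 of 31, among them without any 1 of the 6 arrays (adjusted p between 0.0548 and 0.101). No direction is therefore given for Arnt under BIO.

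Ahrr (chromosome 13, 74211118 to 74292331) competes with the receptor for Arnt and is itself induced by the receptor. Its 1 probe set read 193, 115 and 181 in dispersed cells with BIO, against 89.8, 111 and 58.7 with DMSO. The groups did not overlap, by a narrow margin, and the difference was 0.92 ± 0.26 (adjusted p = 0.0191). In aggregates it read 144, 163 and 119 with BIO, against 118, 102 and 156 with DMSO, with overlap (0.19 ± 0.26, adjusted p = 0.699). The 2 effects of BIO differed by -0.73 ± 0.36, which did not pass (adjusted p = 0.514). At 48 h it read 153, 152 and 165 with BIO kept, against 69.3, 123 and 97.3 with BIO withdrawn (0.73 ± 0.26, adjusted p = 0.0777), again without overlap. The call in dispersed cells was lost without BIO array 1 (0.78, adjusted p = 0.0876), BIO array 3 (0.82, adjusted p = 0.0774) or DMSO array 3 (0.66, adjusted p = 0.109). It was also lost with only the compared arrays (adjusted p = 0.11), with the beta-actin covariate (adjusted p = 0.065) and with the Gapdh covariate (adjusted p = 0.0813). The Gapdh covariate is the ratio of the 3' to the 5' Gapdh control signal. In dispersed cells that ratio was 9.29 to 10.46 with BIO, against 11.61 to 12.42 with DMSO.

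Tiparp (chromosome 3, 65528447 to 65555518) is a target that ADP-ribosylates the receptor and so limits it. Its brightest probe set, 1426721_s_at, read 6188, 6358 and 6080 in aggregates with BIO, against 4998, 5069 and 5088 with DMSO. These tight groups did not overlap, and the difference was small, 0.30 ± 0.08 (adjusted p = 0.0113). It was lost at the deposited scaling (0.24, adjusted p = 0.0545), with only the compared arrays (adjusted p = 0.172) and with the beta-actin covariate (0.31, adjusted p = 0.229). In dispersed cells the probe set read 5750, 5838 and 5866 with BIO, against 5334, 5260 and 5400 with DMSO, again without overlap, and 0.13 ± 0.08 did not pass (adjusted p = 0.314). The other 2 Tiparp probe sets, 1452160_at and 1452161_at, did not pass under BIO in either culture. With the beta-actin covariate 1452161_at passed in aggregates (1.83, adjusted p = 0.00629), against 0.29 ± 0.31 without it.

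Cyp1a1 (chromosome 9, 57687928 to 57703824) is the classical receptor target. Its 1 probe set read 148, 61.1 and 106 in aggregates with BIO, against 7.53, 112 and 79.6 with DMSO. In dispersed cells it read 76.3, 13.3 and 37.3 with BIO, against 91.3, 54.5 and 43.3 with DMSO. At 48 h it read 21.6, 89.97 and 97.1 with BIO kept, against 47.2, 31.5 and 56.8 with BIO withdrawn. All 3 pairs overlapped, and in 4 of these 6 groups the arrays lay on both sides of background. In aggregates with BIO at 24 h and in dispersed cells with DMSO all 3 arrays lay above it. The aggregates with BIO at 24 h did not overlap BIO withdrawn (adjusted p = 0.434) or fresh cells, which read 29.2, 4.44 and 44.5. Against fresh cells they stood at least 2.275-fold higher, and the difference of 2.35 ± 0.95 did not pass (adjusted p = 0.0757). The 95% interval of the BIO effect ran from -0.80 to 3.24 in aggregates (adjusted p = 0.439) and from -2.83 to 1.21 in dispersed cells (adjusted p = 0.654). Intervals this wide leave room for a several-fold change in either culture, so an induction of Cyp1a1 was neither seen nor bounded closely at this signal.

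Cyp1b1 (chromosome 17, 79706940 to 79715061) gave the largest differences of the 7 genes with BIO against DMSO in both cultures, by their brightest probe sets. Its brightest probe set, 1416612_at, read 1538, 1312 and 1678 in aggregates with BIO, against 8551, 8518 and 8953 with DMSO. In dispersed cells it read 2975, 2548 and 2856 with BIO, against 9363, 9067 and 8953 with DMSO. Every BIO array thus lay far below every DMSO array in both cultures. The differences were -2.53 ± 0.12 in aggregates (adjusted p = 7.18e-10) and -1.71 ± 0.12 in dispersed cells (adjusted p = 4.15e-08). Among the brightest probe sets of the 18193 named genes, 229 fell further than Cyp1b1 in aggregates and 582 in dispersed cells. The fall passed under each of the 32 alternatives run in either culture, with the weakest adjusted p at 0.00102 in aggregates and 0.00054 in dispersed cells. In bulk samples, fewer cells of a type and less RNA per cell cannot be told apart.

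A second Cyp1b1 probe set, 1416613_at, moved the same way. It read 212, 148 and 254 in aggregates with BIO, against 1913, 2392 and 1993 with DMSO, a difference of -3.38 ± 0.28 (adjusted p = 2.43e-07). In dispersed cells it read 424, 346 and 550 with BIO, against 2532, 1992 and 1910 with DMSO, a difference of -2.30 ± 0.28 (adjusted p = 1.51e-05). Groups did not overlap in either culture. Another, 1432081_at, was dim, with group means between 56.1 and 85.9, and did not pass in any comparison. The fall at 1416612_at was larger in aggregates than in dispersed cells by 0.82 ± 0.17 (adjusted p = 0.0449), a call that was lost in 21 of 32 alternatives. Leaving out any 1 of 15 arrays ended it, with differences from -0.89 to -0.72 and adjusted p from 0.051 to 0.119. At 1416613_at the same difference was -1.08 ± 0.39 and did not pass (adjusted p = 0.321).

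After 48 h Cyp1b1 was lower with BIO kept than with BIO withdrawn. At 1416612_at the signal was 1974, 1908 and 1665 with BIO kept, against 5279, 7038 and 5587 with BIO withdrawn (-1.68 ± 0.12, adjusted p = 1.15e-07). At 1416613_at it was 327, 319 and 217 with BIO kept, against 437, 954 and 539 with BIO withdrawn (-1.10 ± 0.28, adjusted p = 0.0143). At neither probe set did the groups overlap. The call at 1416613_at was lost without array 3 of BIO kept (-0.91, adjusted p = 0.0706) or array 2 of BIO withdrawn (-0.78, adjusted p = 0.0771), with only the compared arrays (adjusted p = 0.16) and with the beta-actin covariate (adjusted p = 0.0934). Against aggregates at the end of the first 24 h of BIO, 1416612_at was higher by 1.98 ± 0.12 with BIO withdrawn (3.94-fold, adjusted p = 3.12e-08). With BIO kept the difference was 0.30 ± 0.12 (adjusted p = 0.129). These comparisons share arrays and carry a further day of culture. The order of levels at 1416612_at was dispersed cells with DMSO and aggregates with DMSO, which did not differ beyond their spread (adjusted p = 0.815), then BIO withdrawn, then dispersed cells with BIO. BIO kept and BIO at 24 h followed, again not told apart (adjusted p = 0.129), and fresh cells were lowest. The other 4 steps passed, with adjusted p between 1.37e-05 and 0.00604. At 1416613_at the order was the same, but the steps from BIO withdrawn to dispersed cells with BIO (adjusted p = 0.287) and from there to BIO kept (adjusted p = 0.163) did not pass. Aggregates with DMSO at 24 h stood 3.43-fold above BIO withdrawn at 1416613_at and 1.46-fold above it at 1416612_at. Of all probe sets 3.26% were called between the DMSO cultures, 16.3% between aggregates with DMSO and BIO withdrawn, 14.4% between dispersed cells with BIO and BIO withdrawn, 14.9% between dispersed cells with BIO and BIO kept, and 29.1% between aggregates with BIO and fresh cells.

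Nqo1 (chromosome 8, 107388225 to 107403205) is induced both by the receptor and by Nrf2, the factor of the oxidative stress response. Its 1 probe set read 587, 617 and 665 in dispersed cells with BIO, against 388, 410 and 396 with DMSO. The groups did not overlap, and the difference of 0.64 ± 0.22 did not pass (adjusted p = 0.0579). It passed in 9 of 32 alternatives, with adjusted p from 0.00978 with only the compared arrays to 0.157. In aggregates Nqo1 read 421, 425 and 473 with BIO, against 388, 365 and 410 with DMSO (0.18 ± 0.22, adjusted p = 0.661), a smaller gap that also did not overlap. At 48 h it read 478, 477 and 281 with BIO kept, against 391, 448 and 223 with BIO withdrawn, with overlap (adjusted p = 0.575).

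**Figure D2:**
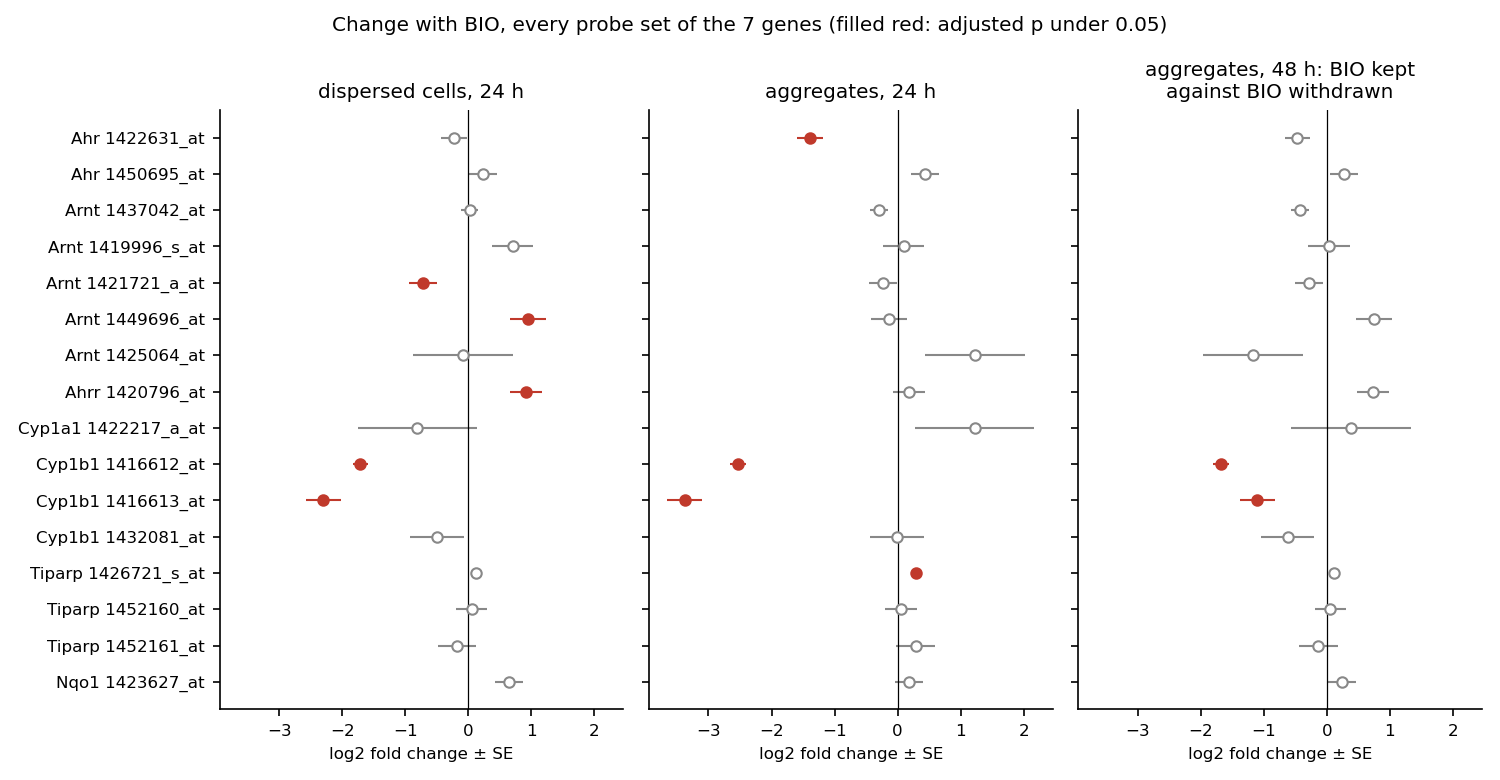
Log2 fold change ± SE of all 16 probe sets in the comparisons of BIO with DMSO in dispersed cells and in aggregates at 24 h, and of BIO kept with BIO withdrawn at 48 h (n = 3 arrays per group), with filled red points for an adjusted p under 0.05. The 2 bright Cyp1b1 probe sets are the only ones called in all 3 panels.

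Counted over the 16 probe sets, 1 was called higher and 3 lower with BIO in aggregates, where 10.6% of all probe sets were called higher and 8.93% lower. In dispersed cells 2 were higher and 3 lower, against 9.66% and 8.87% of all. With BIO kept against BIO withdrawn 0 were higher and 2 lower, against 6.33% and 6.25%. For the difference between the effects of BIO in the 2 cultures, 0 were called higher and 1 lower, against 0.244% and 0.373% of all. Between BIO kept to 48 h and BIO at 24 h limma called 0 of 16, against 14.6% of all in either direction; 3 had an unadjusted p under 0.05, and the alternatives called 0 or 1. Between BIO withdrawn and BIO at 24 h 3 were higher and 0 lower, against 10.1% and 10.9%, while the median change of all probe sets was -0.11. The median change of the 16 was 0.07 in aggregates and -0.03 in dispersed cells, against 0.05 and 0.03 over all probe sets.

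Cyp1b1 was higher in both DMSO cultures than in fresh cells. In fresh cells 1416612_at read 1044, 939 and 915, so aggregates with DMSO stood 8.98-fold above them (3.17 ± 0.12, adjusted p = 7.2e-11) and dispersed cells with DMSO 9.45-fold above (3.24 ± 0.12, adjusted p = 4.81e-11). Of the 18193 named genes, 134 rose further in aggregates and 137 in dispersed cells. At 1416613_at fresh cells read 98.4, 90.1 and 126, and DMSO culture stood 19.9-fold above them in aggregates and 20.3-fold in dispersed cells. With BIO present Cyp1b1 was still above fresh cells, by 0.64 ± 0.12 in aggregates at 24 h (adjusted p = 0.00108), by 1.53 ± 0.12 in dispersed cells (adjusted p = 2.5e-07) and by 0.93 ± 0.12 in aggregates with BIO kept (adjusted p = 3.25e-05). Of all probe sets 17.0% were called in dispersed cells with BIO against fresh cells, and 25.3% with BIO kept against fresh cells. The comparisons with fresh cells share the fresh arrays, and those with DMSO at 24 h share the DMSO arrays with the comparisons of BIO, so a high DMSO level enters both the rise with culture and the fall with BIO.

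Tiparp, Nqo1 and Arnt also differed between cultured and fresh cells. Tiparp at 1426721_s_at read 3393, 3310 and 3345 in fresh cells, below every cultured array, and was higher by 0.59 ± 0.08 in aggregates with DMSO (adjusted p = 2.75e-05) and by 0.67 ± 0.08 in dispersed cells with DMSO (adjusted p = 6.98e-06). At 1452160_at it was higher by 1.45 ± 0.25 in dispersed cells with DMSO (adjusted p = 0.000428), and in aggregates the 0.68 ± 0.25 did not pass (adjusted p = 0.0578) but reached 1.01 (adjusted p = 0.00336) without fresh array 3. Nqo1 read 237, 200 and 184 in fresh cells and was higher by 0.91 ± 0.22 in aggregates with DMSO (adjusted p = 0.00625) and by 0.95 ± 0.22 in dispersed cells with DMSO (adjusted p = 0.00508). The Nqo1 call in aggregates was lost with the Gapdh covariate (0.83, adjusted p = 0.129). The Gapdh ratio was 13.59 to 15.35 in aggregates with DMSO, against 8.59 to 10.4 in fresh cells.

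Arnt at 1437042_at read 1802, 1872 and 1944 in fresh cells, above every cultured array, and was lower by 0.53 in dispersed cells with DMSO (log2 difference -0.53 ± 0.14, adjusted p = 0.0104). In aggregates with DMSO the difference of -0.34 ± 0.14 did not pass (adjusted p = 0.0823). The call in dispersed cells was lost at the deposited scaling (adjusted p = 0.0885), with each array centred on its median (adjusted p = 0.0769) and with the Gapdh covariate (adjusted p = 0.0548). The probe set 1419996_s_at was also lower in dispersed cells with DMSO (-0.98 ± 0.33, adjusted p = 0.0404). That call was lost in 11 of 31 alternatives, among them without DMSO array 2 or 3 or without any 1 of the fresh arrays (-1.05 to -0.84, adjusted p between 0.0685 and 0.14). The Arnt probe set 1421721_a_at went the opposite way, higher by 0.96 ± 0.22 in aggregates with DMSO (adjusted p = 0.00392) and by 0.84 ± 0.22 in dispersed cells with DMSO (adjusted p = 0.011). The call in aggregates was lost with only the compared arrays (adjusted p = 0.0702) and with the Gapdh covariate (adjusted p = 0.124), and that in dispersed cells also without DMSO array 2 (adjusted p = 0.0527) or fresh array 3 (adjusted p = 0.0576). In all, 5 of the 16 probe sets were higher and 0 lower in aggregates with DMSO, against 13.7% and 13.5% of all. In dispersed cells with DMSO 6 were higher and 2 lower, against 11.5% and 11.9%. Ahr, Ahrr and Cyp1a1 did not pass in either comparison of DMSO culture with fresh cells.

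Most markers of the interstitial stroma were lower with BIO, as Cyp1b1 was. Of 9 markers of the interstitial stroma, the connective tissue cells around the nephron progenitors, 0 were higher and 7 lower with BIO in aggregates, and 1 was higher and 6 lower in dispersed cells. With BIO kept against BIO withdrawn 0 were higher and 6 lower. Over the brightest probe set of every gene, 14.9% were higher and 11.1% lower in aggregates, 13.1% and 11.7% in dispersed cells, and 9.14% and 7.90% at 48 h. Their summed signal was 3983 to 4181 in aggregates with BIO, against 14140 to 14960 with DMSO, and 3513 to 3749 in dispersed cells with BIO, against 13040 to 13940 with DMSO. It was 2252 to 2831 with BIO kept, against 10520 to 11810 with BIO withdrawn. All 9 stayed above background in every group, Foxd1, the factor of stromal progenitors, among them. In fresh cells the sum was 13710 to 15000, and overlapped that of both DMSO cultures. The sum adds signals of different probe sets, so bright markers weigh most and opposite moves can cancel. From fresh cells to aggregates with DMSO the mean of Foxd1 went from 2104 to 4738, and that of Col3a1 from 6286 to 5128. A like sum therefore does not show a like stromal share. By the brightest probe set of every gene, 16.9% were higher and 13.2% lower in aggregates with DMSO than in fresh cells. In dispersed cells with DMSO these shares were 13.5% and 16.2%. Of the stromal markers 2 were higher and 3 lower than in fresh cells in aggregates with DMSO, and 2 and 5 in dispersed cells with DMSO. Foxd1 was among the higher ones, by 1.17 ± 0.15 in aggregates (adjusted p = 3.06e-05) and by 1.06 ± 0.15 in dispersed cells (adjusted p = 7.24e-05), and it fell with BIO by 2.31 ± 0.15 in aggregates (adjusted p = 2.03e-08) and by 2.35 ± 0.15 in dispersed cells (adjusted p = 1.34e-08). What part the stromal share of the sample has in the fall of Cyp1b1 was not tested.

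**Figure D3:**
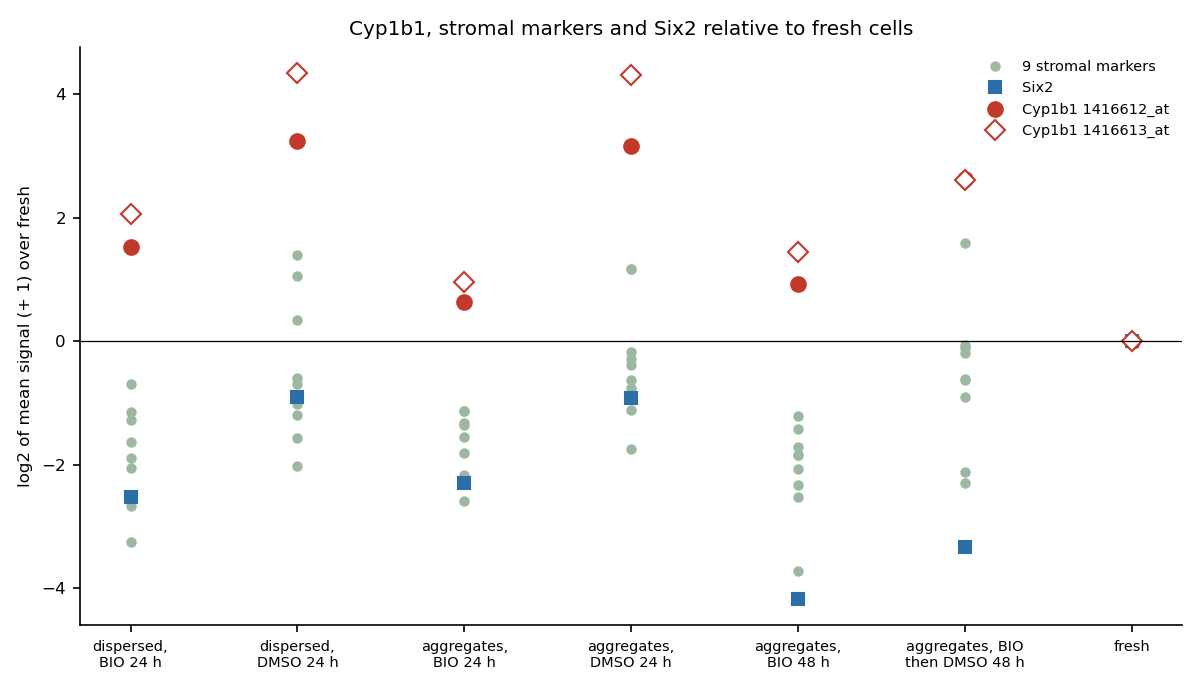
Log2 of the mean signal (+ 1) over that of fresh cells, for 2 probe sets of Cyp1b1, the 9 stromal markers and Six2 in each group (means of 3 arrays). Cyp1b1 lies above fresh cells in all 6 cultured groups, whereas the stromal markers lie on both sides of the fresh level with DMSO and all below it in the 3 groups with BIO present.

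The other marker counts with BIO stand beside the same shares of all genes. These were 14.9% higher and 11.1% lower in aggregates, and 13.1% and 11.7% in dispersed cells. Of 9 markers of the nephron progenitors 4 were higher and 5 lower with BIO in aggregates, where their summed signal was 17940 to 18730 with BIO, against 12240 to 13820 with DMSO. In dispersed cells 2 were higher and 5 lower, and the sum was 13040 to 13530 with BIO, against 12490 to 13560 with DMSO. In fresh cells it was 35450 to 37400. Eya1 and Sall1, transcription factors of the progenitors, were higher with BIO in both cultures, while Six2, whose gene drives the transgene used for the sort, was lower in both. Six2 read on average 1797 in aggregates with BIO, against 4686 with DMSO, 1543 in dispersed cells with BIO, against 4767 with DMSO, and 8864 in fresh cells. Of 6 leukocyte markers 1 was higher and 1 lower with BIO in aggregates, and 3 were lower in dispersed cells, where their sum was 556 to 779 with BIO, against 1353 to 1690 with DMSO. Of 6 endothelial markers 1 was higher with BIO in aggregates and 0 passed in dispersed cells. The means of 4 of the 6 lay above background in fresh cells, 3 in dispersed cells with DMSO and 4 in aggregates with DMSO. The mean of Cdh5, an endothelial junction protein, was above background in fresh cells but below it in both DMSO cultures. Those of Kdr, Tek and Emcn were above it in both DMSO cultures. Of 7 ureteric bud markers 2 were higher in aggregates and 1 in dispersed cells. Their part in the values above was not tested.

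Neighbours of the receptor pathway were counted on the brightest probe set of each gene. Over all genes 14.9% were higher and 11.1% lower with BIO in aggregates, and 13.1% and 11.7% in dispersed cells. These shares also apply to the lists of receptor, Nrf2 and Wnt targets below. Of 15 chaperones, partners and relatives of the receptor, 0 were higher and 4 lower with BIO in aggregates, and 0 and 3 in dispersed cells. Their median change was -0.21 and -0.07, against 0.09 and 0.03 over all genes. Npas3, a relative of the receptor in the bHLH-PAS family, fell by 1.57 ± 0.29 in aggregates (adjusted p = 0.000957) and by 1.36 ± 0.29 in dispersed cells (adjusted p = 0.00302). Arntl, the clock factor also called BMAL1, fell by 0.62 ± 0.19 in aggregates (adjusted p = 0.0277) and by 0.82 ± 0.19 in dispersed cells (adjusted p = 0.00471). Arnt2, the paralogue of Arnt, fell by 0.33 ± 0.11 in aggregates (adjusted p = 0.045), and so did Ncoa3, a coactivator, by 0.34 ± 0.11 (adjusted p = 0.0388). Epas1, a hypoxia-inducible factor that also pairs with Arnt, fell by 0.83 ± 0.21 in dispersed cells (adjusted p = 0.012) and by 0.91 ± 0.21 with BIO kept against withdrawn (adjusted p = 0.00949). In aggregates at 24 h Epas1 averaged 416 with BIO and 355 with DMSO, a difference of 0.24 ± 0.21 that did not pass (adjusted p = 0.519).

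Of 13 further genes reported as receptor targets, 2 were higher and 1 lower with BIO in aggregates, and 0 higher and 3 lower in dispersed cells, at medians of -0.32 and -0.31. Among the 13 the means of Cyp1a2, Aldh3a1, Gsta2 and Fgf21 lay below background in every group. The counts and medians include these genes, whose change could not be read at that signal. Over all genes the shares were 14.9% and 11.1% in aggregates, and 13.1% and 11.7% in dispersed cells. Cyp2s1, a cytochrome P450, averaged 59.0 ± 39.5 in aggregates with BIO and 181 ± 23.2 with DMSO (SD, n = 3 each), a difference of -1.90 ± 0.42 (adjusted p = 0.00364). In dispersed cells it averaged 44.0 ± 8.15 with BIO and 166 ± 27.7 with DMSO, a difference of -1.90 ± 0.42 (adjusted p = 0.00377). Slc7a5, an amino acid transporter, was higher with BIO in aggregates by 0.91 ± 0.26 (adjusted p = 0.0206), and so was Epgn, a growth factor of the EGF family, by 1.07 ± 0.32 (adjusted p = 0.0249). Serpinb2, a protease inhibitor, fell at least 4.79-fold with BIO in dispersed cells (adjusted p = 0.00595), and Ereg, another EGF-family ligand, fell by 1.195 ± 0.38 (adjusted p = 0.0377). Of the brightest probe sets of all genes, 16.9% were higher and 13.2% lower in aggregates with DMSO than in fresh cells, and 13.5% and 16.2% in dispersed cells with DMSO. In DMSO culture against fresh cells 4 of the 13 were higher and 0 lower in aggregates, and 3 and 0 in dispersed cells. Serpinb2, Ereg and Nfe2l2, which encodes Nrf2, were called higher in both.

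Of 15 Nrf2 targets, 4 were higher and 2 lower with BIO in aggregates, and 5 and 1 in dispersed cells, at medians of 0.14 and 0.29. Gstm1, a glutathione transferase, averaged 979 ± 107 in aggregates with BIO and 370 ± 20.2 with DMSO (1.40 ± 0.15, adjusted p = 5.26e-06). In dispersed cells it averaged 1493 ± 119 with BIO and 334 ± 44.7 with DMSO (2.16 ± 0.15, adjusted p = 3.01e-08). Mafg, a small Maf protein that pairs with Nrf2, was higher by 1.54 ± 0.22 in aggregates (adjusted p = 8.12e-05) and by 1.46 ± 0.22 in dispersed cells (adjusted p = 0.000134). Txnrd1, a thioredoxin reductase, fell by 0.56 ± 0.14 in aggregates (adjusted p = 0.0073) and by 0.54 ± 0.14 in dispersed cells (adjusted p = 0.00944). In DMSO culture against fresh cells 6 of the 15 were higher and 2 lower in aggregates, and 7 and 2 in dispersed cells. Txnrd1 was then higher by 1.49 ± 0.14 in aggregates (adjusted p = 6.36e-07), and Srxn1, a sulfiredoxin, by 2.58 ± 0.20 (adjusted p = 8.31e-08).

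Canonical Wnt targets were read on the same arrays. Of 6 such genes, 5 were higher and 0 lower with BIO in both cultures at 24 h, at medians of 3.39 in aggregates and 3.99 in dispersed cells. Axin2, the feedback inhibitor of the pathway, averaged 3532 ± 411 in aggregates with BIO and 352 ± 26.1 with DMSO (3.32 ± 0.17, adjusted p = 1.53e-09). It averaged 4804 ± 58.4 in dispersed cells with BIO and 260 ± 80.6 with DMSO (4.24 ± 0.17, adjusted p = 1.06e-10).

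**Figure D4:**
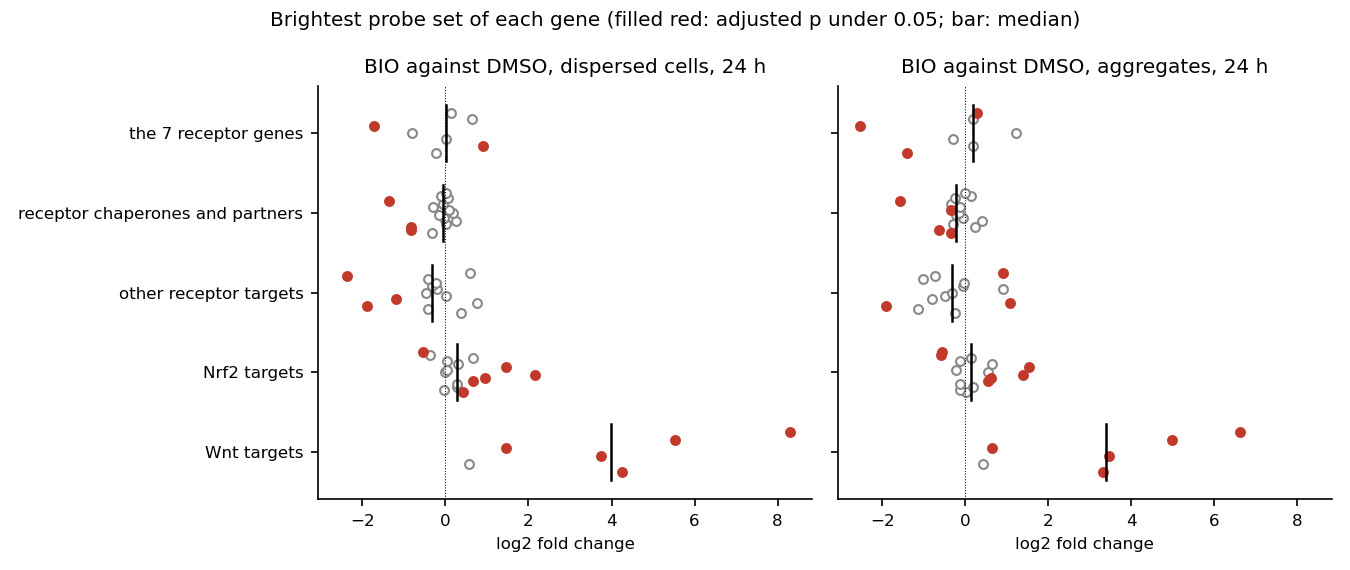
Log2 fold change with BIO of the brightest probe set of each gene in 5 lists, in dispersed cells and in aggregates at 24 h, with filled red points for an adjusted p under 0.05 and a bar at the list's median. The 7 receptor genes centre near 0 with Cyp1b1 far to the left, while the Wnt targets lie to the right at medians of 3.99 and 3.39.

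The genes most alike each member were the 3 with the highest Pearson correlation of log2 signals over the 21 arrays, among 13025 genes above background. The arrays share groups, so these values describe the pattern over groups. Cyp1b1 was most like Hbegf (0.984), Crim1 (0.981) and Myof (0.976). Tiparp was most like Noa1 (0.966), Sod2 (0.954) and Cnih1 (0.953), and Nqo1 was most like Gclc (0.899), Slc3a2 (0.886) and Cdr2 (0.871). Ahr was most like Zfpm2 (0.876), Afap1 (0.864) and Mcc (0.863). For Arnt the highest values were 0.849 for Il33, 0.845 for Lpin2 and 0.845 for Btbd11. Ahrr reached no more than 0.793, with Faf2, and Cyp1a1 no more than 0.792, with Marchf4.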

How the data were processed

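Gene expression was measured on 21 one-colour arrays of 45101 probe sets. The values the authors deposited are linear signal intensities between 0.1 and 18025.33 with array medians of 87.24 to 106. No label or header used here names their software or scaling. Per the labels' protocols, RNA went through 2 rounds of amplification and biotin labelling.

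The 64 control probe sets were left out of the tests. The deposited intensities were quantile-normalised, and log2(value + 1) was fitted with 1 mean per group over all 21 arrays in limma 3.58.1 (R 4.3.3; 14 residual and 1.68 prior degrees of freedom), with Benjamini-Hochberg adjustment over 45037 probe sets in each comparison. Background, a signal of 41.9, is the level under which 95% of the values of 27 Bacillus controls fell. Where 1 group's mean lay below it, folds are lower bounds, with arrays below background raised to it. Levels of different probe sets are not compared. Names come from the platform table and RefSeq symbols, with 34945 probe sets naming 1 gene, 932 several and 9160 none.

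Of 8 comparisons each has its own test, and the other 14 group pairs gave the order of levels. For Cyp1b1, Ahr and Cyp1a1 they also gave BIO groups against fresh cells, and for Ahr the 2 cultures with BIO against each other. The named genes are the 7 members, listed genes that passed, listed receptor targets below background in every group, the markers a result turns on, and the 3 genes most alike each member. Members, lists, covariates and alternatives were chosen with earlier results of these data known. Not analysed here were the listed genes Hsp90ab1, Ptges3, Ugt1a6a, Ugt1a6b, Ugt1a7c, Gsta1, G6pdx, Ftl1, Tcf7 and Pax2, and 1 further listed gene is not reported here. The fit was tested on simulated data. Alternatives were the deposited scaling, median centring, log2(value + 16), only probe sets above background, 1 probe set per gene, only the compared arrays, array weights, a variance trend with robust prior, a replicate block, beta-actin or Gapdh covariates, and leaving out each array. The Gapdh ratio also differed among the other aggregates. It was 11.36 to 15.2 with BIO at 24 h, 6.2 to 9.57 with BIO kept and 9.99 to 12.39 with BIO withdrawn. With it as a covariate 1259 probe sets were called between BIO kept and BIO at 24 h, against 6558 in the main fit. Plots used Python 3.11.15 and matplotlib 3.10.9. Replicates correlated at 0.958 to 0.987 within groups, at most 0.288% of values were identical between any 2 arrays, and 67.84 to 67.88% of probe sets lay above background on each array. The 3 arrays per group limit the precision.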

Additional observations from a re-analysis of the deposited data

Results flagged for a closer look

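Cyp1b1 was singled out because the effect of BIO differed between the cultures by a test of the difference itself. At 1416612_at the effect in aggregates minus that in dispersed cells was -0.818 ± 0.174 (log2, SE, adjusted p = 0.0449), with BIO effects of -2.53 in aggregates and -1.71 in dispersed cells. The DMSO groups of the 2 cultures overlapped, with means of 8674 in aggregates and 9128 in dispersed cells, and the BIO means were 1510 in aggregates and 2793 in dispersed cells. Over 32 alternatives the difference stayed between -0.90 and -0.72, and the adjusted p lay between 0.00602 and 0.246. The beta-actin control, lowest on the aggregates with BIO, moved with it, and with that control as a covariate the difference was -0.76 (adjusted p = 0.246).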

How the results depend on the processing

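No result called in the fit described above changed direction in any alternative. Differences that were not called there could change sign. One was Tiparp 1452161_at in BIO withdrawn against BIO at 24 h, which was 0.805 in that fit and ran from -0.985 to 1.028 over the alternatives. Of 4016 values of single probe sets under alternatives 3901 kept their side of the threshold, 79 lost a call and 36 gained one. The 2 bright Cyp1b1 probe sets kept their calls for BIO in both cultures and for DMSO culture against fresh cells in every alternative run. With BIO in dispersed cells the 5 called probe sets became 3 with the beta-actin covariate and 2 with the Gapdh covariate, where calls over all probe sets were 8703 and 6857, against 8346. For the difference between cultures the count of 1 became 0 at the deposited scaling, with median centring, with only the compared arrays, with the replicate block and with either covariate, and 2 with array weights or a variance trend. Over all probe sets these settings gave 102 to 581 calls, against 278. For BIO kept against withdrawn the count of 2 became 1 with only the compared arrays and 1 with the beta-actin covariate (2021 and 4414 calls over all, against 5669); with 1 probe set per gene it was 2, against 1 for the same probe sets otherwise. For aggregates with DMSO against fresh cells the count of 5 became 8 with a variance trend and 3 with the Gapdh covariate (12941 and 5676 calls over all, against 12253). For dispersed cells with DMSO against fresh cells 8 became 5 with the Gapdh covariate (8346 calls over all, against 10550), and for BIO withdrawn against BIO at 24 h 3 became 1 with the beta-actin covariate (909 calls over all, against 9423). Leaving out 1 array gave 4 to 4 for BIO in aggregates, 2 to 6 for BIO in dispersed cells, 0 to 1 for the difference between cultures and 1 to 3 for BIO kept against withdrawn. It gave 5 to 6 and 6 to 8 for DMSO culture of aggregates and dispersed cells against fresh cells, 0 to 1 for BIO kept against BIO at 24 h, and 2 to 4 for BIO withdrawn against BIO at 24 h. The replicate numbers were not used to pair the arrays, since in none of the 7 comparisons did every same-numbered pair correlate above 0.1. Those correlations, of deviations from means of 3 arrays, ran from -0.468 to 0.154. They cannot show whether same-numbered arrays shared a litter, sort or culture. With the replicate block the counts were 4 in aggregates, 4 in dispersed cells, 0 for the difference between cultures, 2 at 48 h, 5 and 7 for aggregates and dispersed cells with DMSO against fresh cells, 0 for BIO kept and 3 for BIO withdrawn against BIO at 24 h. Signal near background limits Cyp1a1, the dim probe sets of Ahr, Arnt and Cyp1b1, and several listed genes.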
